A study of Homo sapiens with 36 samples.

Results

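The histone demethylase inhibitor GSK-J4, given without cisplatin, was examined in 2102EP-C1 cells by RNA-seq. 2102EP is a human embryonal carcinoma line from a testicular germ cell tumor, and 2102EP-C1 is a clone of it that was selected for cisplatin resistance. The comparison was chosen by its labels alone. It set 3 libraries from cells that had grown for 3 days in GSK-J4, at 1.0 µM, against 3 libraries from control cells of the same clone that had not received either drug, which makes 6 of the 36 samples in the series, and it covered all 17035 genes in the deposited table. The titles of the controls carry the letters VC, their treatment label reads Control, and the design text speaks of untreated cells, so that whether they were given a vehicle is not clear. The same table held 3 libraries from cells given 0.5 µM cisplatin for 6 h and 3 from cells given GSK-J4 and then cisplatin, and these served for the same drug contrast in the presence of cisplatin. The authors harvested RNA on the day after the cisplatin treatment, not at the end of its 6 h. For cells given no cisplatin they name no separate harvest time. GSK-J4 was also given to NT2/D1-A4 cells, a resistant clone of another embryonal carcinoma line, and a further experiment used 2102EP-C1 cells with the empty vector pLKO1 or with hairpins against KDM6A and KDM6B (sh6A+6B). Each result on 2102EP-C1 therefore rests on 1 resistant clone and 1 dose. No library from the sensitive parental line was compared here.

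GSK-J4 is a cell-permeable ester that is cleaved inside the cell to GSK-J1, an inhibitor of KDM6A (UTX) and KDM6B (JMJD3). These enzymes remove methyl groups from lysine 27 of histone H3, a repressive mark that the polycomb complex PRC2 writes through EZH2. In embryonal carcinoma cells, as in embryonic stem cells, many genes of later lineages carry this mark. Another pathway returns throughout the results. In the integrated stress response, kinases that sense amino acid shortage, misfolded protein, double-stranded RNA, or heme shortage phosphorylate the translation factor eIF2α, general translation slows, and the transcription factor ATF4 is made. ATF4 then binds, often with a C/EBP partner, to C/EBP-ATF response elements (CARE) in genes for amino acid uptake, amino acid synthesis, and tRNA charging.

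The CARE sequences in front of some of these genes are shown first. The letters TGATGNAA were searched on both strands in the RefSeq promoter windows of GRCh38.p14, which run from 250 bases before to 50 bases after each annotated start, and 12821 of the 17035 genes had at least 1 window. The search was of letters only, and a match is not evidence of binding. The examples below lie wholly before the start site of the gene, and the match is in capitals, either as TGATGNAA or as its reverse complement. The first 8 genes were called higher after GSK-J4, and PPP1R15B and SLC1A3 were not called. MTHFD1L and YARS2, also not called, had matches at -129 and -197 that are not printed.
ATF3 (chr1:212565196-212565243, plus strand): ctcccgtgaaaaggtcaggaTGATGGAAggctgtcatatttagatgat
CEBPG (chr19:33374051-33374098, plus strand): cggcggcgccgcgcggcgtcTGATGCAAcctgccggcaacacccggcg
FGF21 (chr19:48755450-48755497, plus strand): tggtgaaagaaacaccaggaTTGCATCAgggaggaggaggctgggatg
SLC1A5 (chr19:46784884-46784931, minus strand): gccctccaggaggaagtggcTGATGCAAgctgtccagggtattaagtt
ASNS (chr7:97872449-97872496, minus strand): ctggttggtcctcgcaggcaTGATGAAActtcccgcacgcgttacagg
GOT1 (chr10:99430795-99430842, minus strand): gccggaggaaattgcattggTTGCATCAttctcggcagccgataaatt
AARS1 (chr16:70289666-70289713, minus strand): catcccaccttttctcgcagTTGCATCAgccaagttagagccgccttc
GARS1 (chr7:30594825-30594872, plus strand): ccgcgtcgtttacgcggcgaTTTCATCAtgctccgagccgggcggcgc
PPP1R15B (chr1:204412017-204412064, minus strand): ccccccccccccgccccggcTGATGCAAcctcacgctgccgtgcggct
SLC1A3 (chr5:36596348-36596395, plus strand): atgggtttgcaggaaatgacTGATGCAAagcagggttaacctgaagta
The first base of the match stood at -191, -42, -54, -97, -68, -198, -187, and -33 relative to the start site in the 8 called genes, in the order shown, and at -227 and -220 in PPP1R15B and SLC1A3. CHAC1, which encodes an enzyme that degrades glutathione, is shown with the 250 bases before its start site, chr15:40953221-40953470 on the plus strand, and its match stood at -209.
CHAC1: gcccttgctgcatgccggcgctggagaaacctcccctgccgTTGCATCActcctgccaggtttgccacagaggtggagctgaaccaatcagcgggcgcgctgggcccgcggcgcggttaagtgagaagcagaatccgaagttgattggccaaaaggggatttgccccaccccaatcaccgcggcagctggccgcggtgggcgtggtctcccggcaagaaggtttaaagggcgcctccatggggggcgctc
A match was present for 3.06% of all genes with a window and in 3.62% of all 35116 windows. It was present for 6.6% of the genes called higher (65 of 985) and 2.25% of the genes called lower (8 of 355). Among the lists described below, a match was present for 6 of 23 integrated stress response genes (26.1%), 6 of 17 amino acid transporters (35.3%), 3 of 16 genes of serine, one-carbon, and amino acid synthesis (18.8%), and 8 of 30 aminoacyl-tRNA synthetases (26.7%). It was present for 1 of 34 p53 pathway genes and 1 of 41 autophagy and lysosome genes. Uncalled stress response and transporter members with a match were PPP1R15B, SLC3A2, and SLC1A3. Among synthesis enzymes and synthetases they were MTHFD1L, IARS1, MARS1, NARS1, TARS1, and YARS2. Whether a match goes with a call was not tested.

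Values are log2 CPM (counts per 1e6 reads), normalized by the trimmed mean of M values with a prior count of 3, so that a difference is a log2 fold change that understates the change of genes with few reads. The reads per library could be recovered from the values and ran, in units of 1e6 reads, from 34.8 to 53.6 in the controls and from 30.3 to 35.4 after GSK-J4. All 11 embryonal carcinoma markers on a fixed list were measured, with a summed level of 11900 to 12100 CPM in the controls and 10300 to 10500 CPM after GSK-J4. No gene on the trophoblast list of hormone and lineage markers was measured. Of 10 markers of stroma, endothelium, and blood, 5 were measured, with DCN, LUM, PTPRC, CD3E, and HBB absent from the table, and their sum was 35.5 to 37.8 CPM in the controls and 40.9 to 43.2 CPM after GSK-J4. In bulk samples such as these, fewer cells of a type and less RNA per cell cannot be told apart. The third GSK-J4 library stood apart: its root mean square distance to the other GSK-J4 libraries was 0.141 and 0.153 log2 units, against 0.0902 between those libraries and 0.0847 to 0.0904 among the controls. That library lay closer to libraries 2 and 3 with both drugs, at 0.122 and 0.112 log2 units, than to its own group. Library 1 with both drugs was further from it, at 0.174. The reason for this closeness was not tested. The deviation of that library from its group mean followed the GC content of the genes (Pearson's r = -0.72 across 10215 genes, which are not independent replicates). In all libraries of the other 3 groups, r lay within 0.124 of 0. Whether GC content plays a part in any result was not tested beyond removing a length and GC trend from each library.

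The filter on low values also bears on the scarcest genes. A gene stayed in the table if at least 2 of the 12 libraries passed a limit, which on the recovered reads lay at 0.425 CPM. A gene that passed only through the 6 libraries with GSK-J4 therefore had to differ if it was to be listed, and the same holds for a gene that passed only through the 6 libraries without it. Of all genes 446 were of the first kind, 128 of them called higher, and 344 of the second, 46 of them called lower. Called list members of these kinds are named or counted with their lists, and their calls do not support a direction.

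Genes were called when the fold change exceeded 1.3 and the adjusted p was under 0.05 (limma, two-sided, Benjamini-Hochberg over all genes). By this rule 10.9% of genes were called, 7.79% higher and 3.12% lower. The list counts below are to be read against these shares. Large changes were mostly rises. In all, 234 genes rose at least 2-fold, 36 at least 4-fold, and 8 at least 8-fold, whereas 25 fell at least 2-fold and none fell 4-fold. The median change was 0.62 among genes called higher and -0.55 among genes called lower. In 1293 of the 1327 higher and 493 of the 531 lower genes, the 3 control and 3 GSK-J4 values did not overlap, and over all genes 44.5% had values that did not overlap. Without the third GSK-J4 library 1730 genes were called (1288 higher, 442 lower), and with the length and GC trend removed 1573 of 15573 genes (1040 higher, 533 lower).

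Among genes with a mean log2 value of at least 1, LAMP3 had the largest rise. LAMP3 (chr3:183122215-183163813) encodes a lysosomal membrane protein known as DC-LAMP. Its log2 CPM was -0.38, -0.05, and -0.30 in the controls and 4.34, 4.24, and 4.3 after GSK-J4, a change of 4.54 ± 0.12 (SE, limma adjusted p = 1.4e-20) from 24 to 39 reads per control library to 616 to 689 reads. DDR2 (chr1:162630863-162787405), a collagen-binding receptor tyrosine kinase, went from 0.27, 0.25, and 0.59 to 4.21, 3.96, and 4.17, a 13.4-fold rise. THRB, the thyroid hormone receptor beta, went from 0.68, 0.28, and 0.52 to 3.75, 3.38, and 3.62, an 8.51-fold rise. These genes were close to the detection limit in every control library and plainly expressed in every treated one.

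NIBAN1, a stress-induced regulator of translation, was already expressed in the controls at 4.22, 4.08, and 4.14 and reached 7.20, 7.20, and 7.25, with a change of 3.07 ± 0.06 (limma adjusted p = 7.8e-24), the smallest adjusted p among these genes. TRIB3, a pseudokinase that binds ATF4 and AKT, rose from 3.64, 3.64, and 3.67 to 6.71, 6.75, and 6.49. INHBE, which encodes the activin beta E subunit, rose from -0.32, -0.21, and -0.37 to 2.37, 2.48, and 2.22. FLNC, the muscle-type filamin that crosslinks actin, rose from the high level of 6.47, 6.54, and 6.51 to 8.82, 8.67, and 8.52. In all of them every treated library lay far above the highest control. The rest of the 11 largest rises were DDIT3 and GDF15, described with the stress response, EGFL6 (2.23 ± 0.10), a secreted protein with EGF repeats, and ULBP1 (2.08 ± 0.11), a ligand of the natural killer cell receptor NKG2D.

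**Figure D1:**
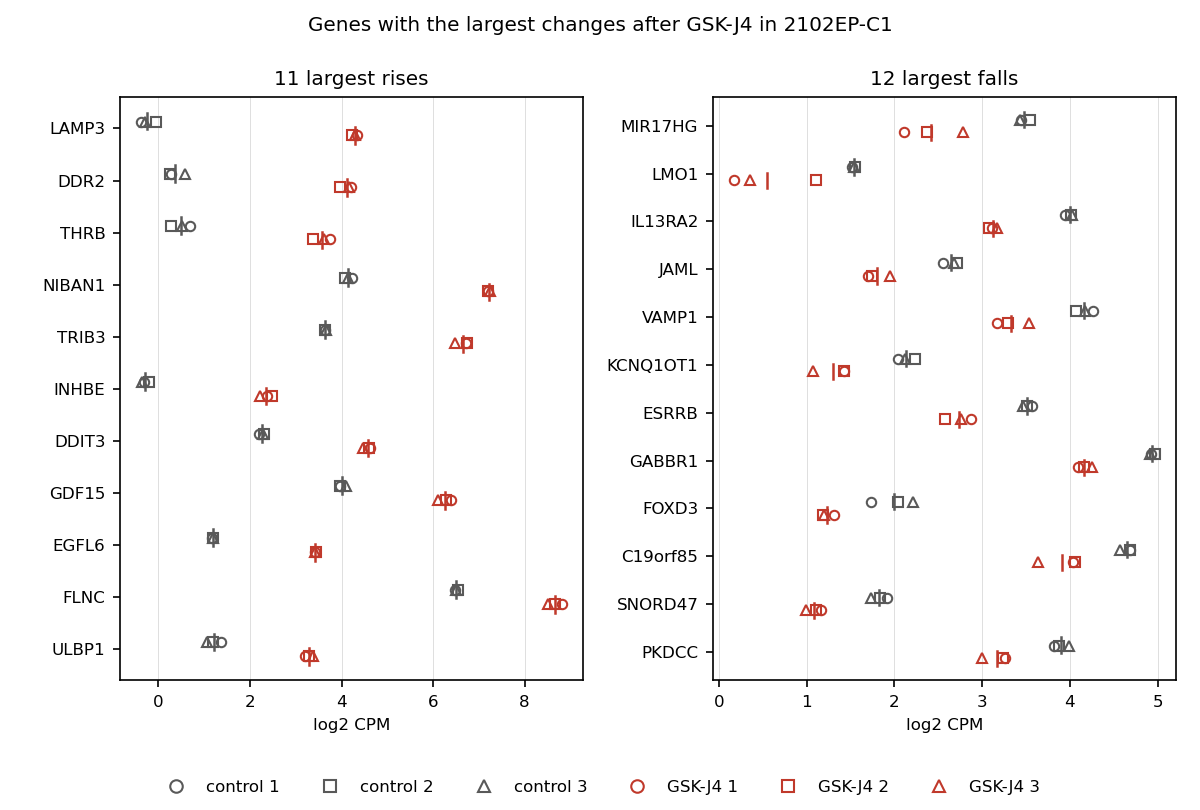
Log2 CPM (x axis) of the 11 genes with the largest rises and the 12 with the largest falls in each of the 3 control (grey) and 3 GSK-J4 (red) libraries of 2102EP-C1, with symbols for library number and a vertical bar for the group mean. The rises span 2.08 to 4.54 log2 units with tight groups, and the falls span -0.73 to -1.05 with wider treated groups for MIR17HG and LMO1.

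The falls were smaller and more often in noncoding RNAs. MIR17HG (chr13:91347687-91354577), the host transcript of the miR-17-92 microRNA cluster, had the largest fall among genes with a mean log2 value of at least 1. It was 3.44, 3.55, and 3.43 in the controls and 2.11, 2.37, and 2.78 after GSK-J4 (-1.05 ± 0.13, limma adjusted p = 6.9e-07). The treated libraries differed widely from each other and none reached a control. Its fall was -1.23 without the third GSK-J4 library. Mature microRNAs are too short for these mRNA libraries and were not measured. The host transcript carries 6 hairpins, and their main mature products are printed from RefSeq (GRCh38.p14, plus strand), with the seed, bases 2 to 8, in capitals. They fall into 4 seed groups: miR-17-5p with miR-20a-5p, miR-18a-5p, miR-19a-3p with miR-19b-3p, and miR-92a-3p.
hsa-miR-17-5p (chr13:91350618-91350640): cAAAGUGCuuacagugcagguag
hsa-miR-20a-5p (chr13:91351072-91351094): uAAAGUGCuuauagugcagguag
hsa-miR-18a-5p (chr13:91350756-91350778): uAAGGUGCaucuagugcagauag
hsa-miR-19a-3p (chr13:91350939-91350961): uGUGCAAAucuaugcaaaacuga
hsa-miR-19b-3p (chr13:91351245-91351267): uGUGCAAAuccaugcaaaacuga
hsa-miR-92a-3p (chr13:91351361-91351382): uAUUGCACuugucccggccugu
LMO1, a LIM-domain transcription cofactor, fell from 1.52, 1.55, and 1.54 to 0.17, 1.11, and 0.35 (-1.0 ± 0.18, limma adjusted p = 0.0001). IL13RA2, the decoy receptor for interleukin 13, fell from 3.95, 4.01, and 4.03 to 3.11, 3.08, and 3.17. KCNQ1OT1, the imprinted antisense RNA inside KCNQ1, fell from 2.04, 2.23, and 2.12 to 1.42, 1.42, and 1.07. Each of these genes was separated between the groups, and LMO1 was the most variable after treatment. The other large falls were JAML (-0.84), VAMP1 (-0.83), ESRRB (-0.78), GABBR1 (-0.77), FOXD3 (-0.76), C19orf85 (-0.74), SNORD47 (-0.73), and PKDCC (-0.73). ESRRB and FOXD3 are pluripotency regulators, VAMP1 is a vesicle fusion protein whose gene lies within the span of TAPBPL, and 73.2% of the FOXD3 span is shared with the antisense gene FOXD3-AS1 (-0.63, called lower), whose reads may not be fully separated from it.

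The integrated stress response had the highest share of called members among the lists with at least 10 measured genes. Of its 27 measured genes, 19 rose and none fell, with a median of 0.81, against 7.79% called higher and a median of -0.00 over all genes. FGF21 was 1 of the 19 and passed the filter only through libraries with GSK-J4, and 18 rises remained without it. By role, the calls lay in the transcription factors and their targets. No member among the 4 eIF2α kinases and eIF2α itself (EIF2S1) was called. EIF2AK2 (PKR), the sensor of double-stranded RNA, was 0.31 (limma adjusted p = 2.5e-06), under the fold limit, and EIF2AK1, EIF2AK3 (PERK), EIF2AK4 (GCN2), and EIF2S1 lay between -0.08 and 0.09. ATF4 mRNA was 7.47, 7.42, and 7.50 in the controls and 7.78, 7.80, and 7.72 after GSK-J4, a change of 0.30 ± 0.03 (limma adjusted p = 7e-08) that was separated between the groups and also under the fold limit. ATF4 is controlled mainly by translation, which these data do not measure.

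All 6 other transcription factors of the list rose. DDIT3 (CHOP), which promotes death under lasting stress, rose from 2.20, 2.30, and 2.28 to 4.63, 4.60, and 4.48 (2.31 ± 0.09), and 70.5% of its span is shared with another annotated locus. ATF3, a repressor of the ATF/CREB family, rose from 3.68, 3.52, and 3.61 to 5.37, 5.29, and 5.26. NUPR1, a small stress-induced chromatin protein, rose from -0.38, -0.90, and -0.97 to 1.77, 1.93, and 1.69. None of the treated values came near a control. ATF5 (1.48 ± 0.08), CEBPB (1.41 ± 0.08), and CEBPG (1.03 ± 0.05), the last an ATF4 partner, rose in every treated library.

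Of the 15 targets and feedback genes, 13 rose. GDF15, a secreted stress hormone, rose from 3.96, 3.96, and 4.1 to 6.39, 6.28, and 6.11 (2.25 ± 0.06, limma adjusted p = 6.7e-20). FGF21, a metabolic hormone, was nearly silent, with 2, 6, and 4 reads in the controls and 16, 22, and 19 after GSK-J4. The ratio was 6.16, in a gene that the filter kept only for its treated libraries. CHAC1 rose from 1.55, 1.27, and 0.42 to 2.38, 2.70, and 2.18 (1.34 ± 0.20), with the controls spread over more than 1 log2 unit and still below every treated library. ADM2 (1.26), PPP1R15A (1.03), which recruits a phosphatase to eIF2α, VEGFA (0.92), SESN2 (0.81), which restrains mTORC1, VLDLR (0.61), and DDIT4 (0.60) also rose. SLC3A2 (0.33, limma adjusted p = 3.7e-06) and PPP1R15B (-0.01), the constitutive counterpart of PPP1R15A, were not called. The list gave 20 rises without the third GSK-J4 library and 18 with the length and GC trend removed.

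**Figure D2:**
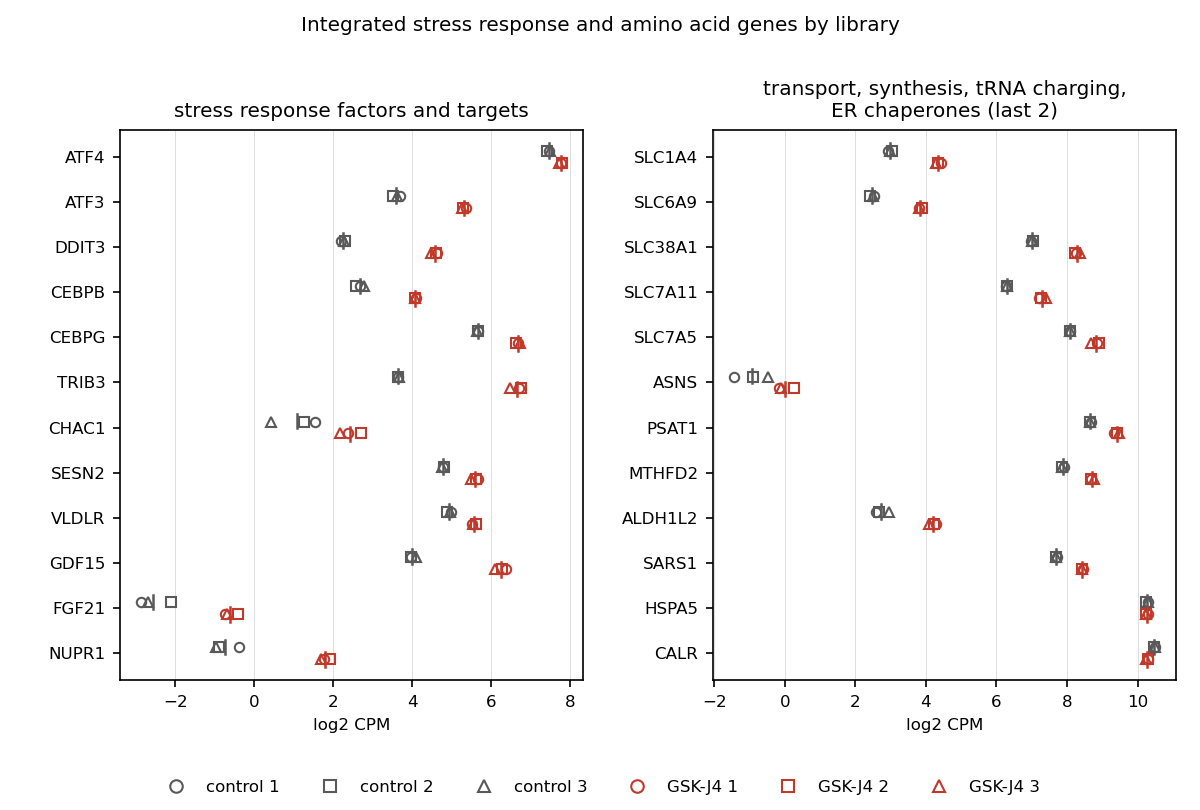
Log2 CPM (x axis) of stress response factors and targets (left) and of transporters, synthesis enzymes, a tRNA synthetase, and the ER chaperones HSPA5 and CALR (right) in each control (grey) and GSK-J4 (red) library, with a vertical bar for the group mean. ATF4 mRNA shifts by 0.30 while DDIT3 and TRIB3 shift by 2.31 and 3.00, and HSPA5 stays at -0.02.

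Amino acid transporters rose as a subset. Of 20 measured, 8 rose and none fell (median 0.30). SLC1A4, a carrier of serine and alanine, rose from 2.93, 3.05, and 2.99 to 4.42, 4.35, and 4.29, and SLC6A9, a glycine carrier, from 2.54, 2.41, and 2.49 to 3.81, 3.89, and 3.80. SLC38A1, a glutamine carrier, rose from 6.97, 7.03, and 7.02 to 8.26, 8.23, and 8.37 (1.28 ± 0.05, limma adjusted p = 4.4e-16). SLC7A11, the cystine importer xCT, rose from 6.26, 6.31, and 6.29 to 7.21, 7.26, and 7.40. The treated groups were tight and lay far from the controls. SLC43A1 (0.87), SLC7A1 (0.84), SLC7A5 (0.73), and SLC1A5 (0.46) rose as well. SLC38A2, a glutamine carrier like SLC38A1, was 0.06 and the lysosomal sensor SLC38A9 was 0.07, and neither was called.

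Enzymes of serine, one-carbon, and amino acid synthesis gave 12 rises and no fall among 26 measured (median 0.32). The enzymes that lead from glycolysis to serine rose, PHGDH by 0.72, PSAT1 by 0.75, and PSPH by 0.56. In the mitochondrial folate cycle, ALDH1L2 rose by 1.46 ± 0.08, MTHFD2 by 0.83 ± 0.04, and SHMT2 by 0.74 ± 0.05, while the cytosolic SHMT1 (-0.10) and MTHFD1 (-0.12) were not called. PSAT1 was 8.69, 8.64, and 8.64 in the controls and 9.34, 9.41, and 9.47 after GSK-J4, so that the abundant members of the pathway were separated as clearly as the scarce ones. ASS1 (0.69), CTH of the stress response list (0.67), GPT2 (0.54), and GOT1 (0.39), which make arginine precursors, cysteine, alanine, and aspartate, also rose. ASNS, asparagine synthetase, was called at 0.95 ± 0.27 but from only 10 to 34 reads per control library, and 99.4% of its span is shared with the read-through gene CZ1P-ASNS, so that its level is uncertain. Its call was lost without the first control library (0.70, limma adjusted p = 0.066).

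Aminoacyl-tRNA synthetases, which charge tRNAs with amino acids, were called in the cytosolic set. Of 20 cytosolic enzymes 5 rose: SARS1 by 0.72 ± 0.04, WARS1 by 0.67 ± 0.04, AARS1 by 0.55 ± 0.04, CARS1 by 0.53 ± 0.04, and GARS1 by 0.52 ± 0.04. SARS1 was 7.71, 7.68, and 7.70 in the controls and 8.44, 8.41, and 8.41 after GSK-J4. Without the fold limit, 35.2% of all genes had an adjusted p under 0.05, 19.2% with a higher and 16% with a lower value. By that rule 12 of the 20 cytosolic enzymes were higher and 4 lower. None of the 17 mitochondrial enzymes was called with the fold limit, and without it 9 were lower and 0 higher. The difference between the compartments was not tested.

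The chaperone arm of the endoplasmic reticulum stress response gave few calls. Of 18 chaperones and folding enzymes, none rose and SDF2L1 fell (-0.48 ± 0.11). HSPA5 (BiP), the main ER chaperone, was 10.29, 10.24, and 10.28 in the controls and 10.30, 10.24, and 10.23 after GSK-J4 (-0.02 ± 0.03, limma adjusted p = 0.74). CALR, calreticulin, was 10.49, 10.45, and 10.48 against 10.29, 10.29, and 10.23 (-0.20 ± 0.04). Of 8 sensors and factors, ERN1 (IRE1) rose by 0.62 ± 0.09, whereas XBP1 (0.16) and ATF6 (0.36) were not called. The SDF2L1 call was lost with the length and GC trend removed (-0.36).

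**Figure D3:**
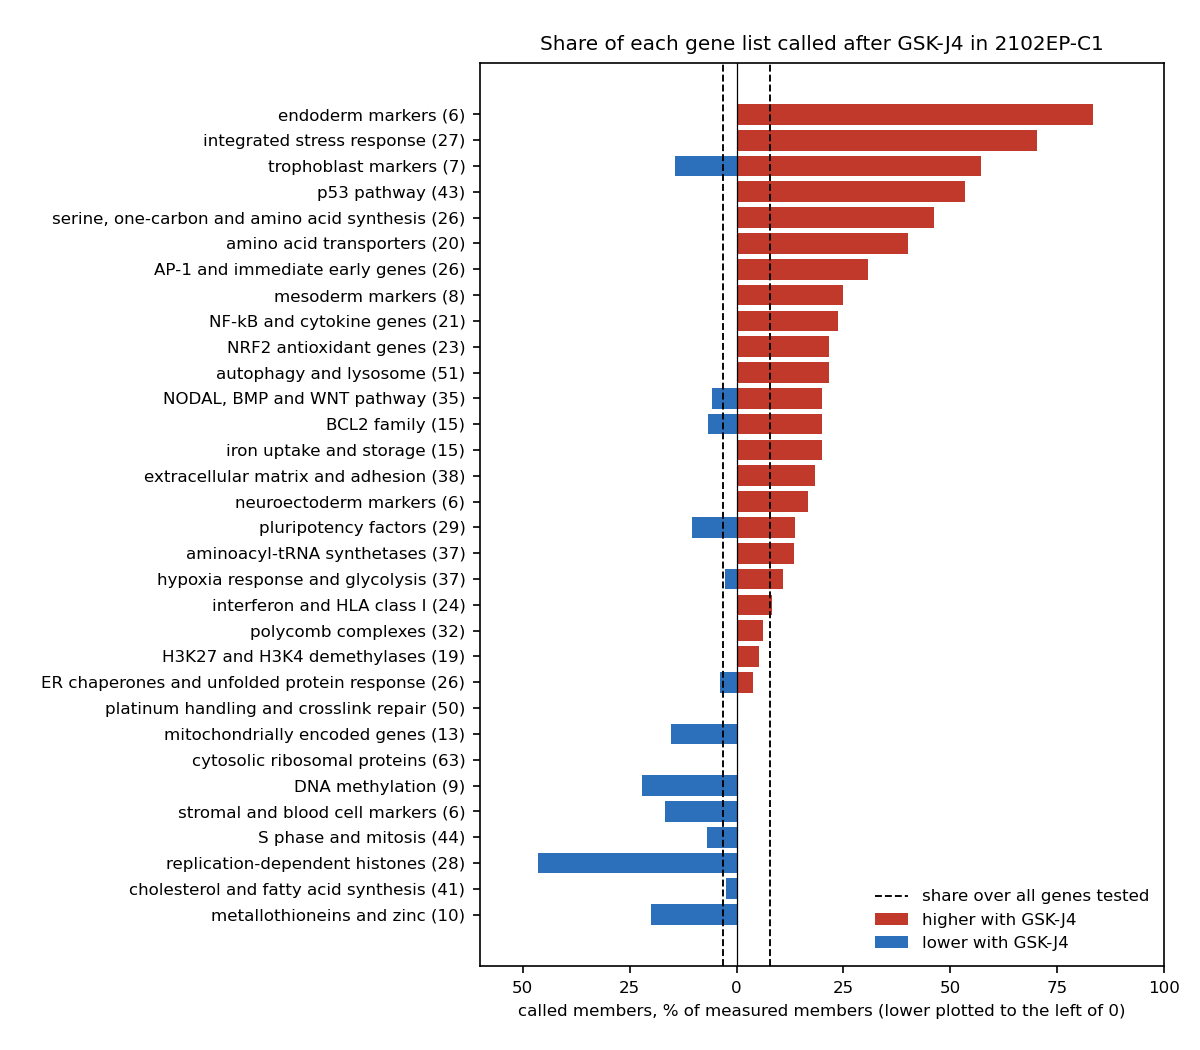
Share of measured members of each gene list called higher (right of 0) or lower (left of 0) after GSK-J4 in 2102EP-C1, in percent, with the number of measured members in parentheses. The integrated stress response reaches 70.4% higher, including FGF21, which the filter kept only for its treated libraries. The endoderm markers reach 83.3% of 6 genes, and 2 of the 5 called were kept in the same way. The replication-dependent histones stand out on the lower side with 13 of 28, of which 7 are genes the filter did not select.

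Antioxidant genes controlled by NRF2 changed in part. Of 23 measured, 5 rose and none fell (median 0.06). SQSTM1 (p62), which links NRF2 to autophagy, rose from 6.13, 6.19, and 6.16 to 7.08, 7.02, and 6.92. NQO1, a quinone reductase, rose from 4.73, 4.67, and 4.66 to 5.47, 5.46, and 5.54, and SLC7A11, MAFF (0.46), and ME1 (0.40) were the other rises. NFE2L2 itself (NRF2) was 0.23, HMOX1 0.17, and GCLC, which makes glutathione, -0.25, none of them called. The ME1 call was lost without the third GSK-J4 library (0.38, under the fold limit), without the third control library (0.32), and with the length and GC trend removed (0.34). The MAFF call was lost without the first control (0.36) or the second GSK-J4 library (0.39, limma adjusted p = 0.051).

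Iron storage genes rose while iron uptake did not. FTH1 and FTL, the ferritin chains, rose from 5.62, 5.50, and 5.63 to 6.31, 6.23, and 6.09 and from 6.97, 6.97, and 7.08 to 7.69, 7.67, and 7.54. SLC40A1 (ferroportin), the iron exporter, rose by 0.89 ± 0.13. TFRC, the transferrin receptor, was 9.42, 9.35, and 9.48 against 9.41, 9.46, and 9.55 (0.06 ± 0.03, limma adjusted p = 0.18), with groups that overlapped, and 0.02 without the third GSK-J4 library. FTH1 has many processed pseudogenes that can take or lend reads. Metallothioneins, small metal-binding proteins, gave 0 rises and 2 falls among 10 genes of the list (median -0.24, or -0.14 without the third GSK-J4 library): MT1X fell from 7.11, 7.06, and 7.08 to 6.66, 6.56, and 6.42, and MT1G was -0.43. MT1G was -0.35, under the fold limit, without the third GSK-J4 library and with the length and GC trend removed. Metallothionein genes are near copies of each other and share reads.

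Lipid and sugar metabolism moved little. Of 41 genes of cholesterol and fatty acid synthesis, none rose and ABCG1, a cholesterol exporter, fell (-0.54 ± 0.18), a call that was lost without the second (limma adjusted p = 0.052) or the third control library (0.094). The list median was -0.10, and without the fold limit 14 members were lower and 1 higher, against 16% and 19.2% of all genes. The regulators SREBF1 (-0.27, or -0.16 without the third GSK-J4 library) and SREBF2 (0.02) were not called. Of 20 glycolysis genes, only ALDOA was called (-0.43 ± 0.11), at a low level of 3.17, 3.25, and 3.46 in the controls, and nearly its whole span (99.9%) is shared with another annotated locus. That call was lost without the third GSK-J4 library (-0.30) or the third control library (-0.34). HIF1A was -0.06 with groups that overlapped, and 4 of 10 measured HIF targets rose, namely ADM (0.98), VEGFA (0.92), P4HA2 (0.67), and NDRG1 (0.48).

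Autophagy and lysosome genes gave 11 rises and no fall among 51 measured, with a median of 0.13. Besides LAMP3, SQSTM1, and SESN2, the rises were WIPI1 (0.62), OPTN (0.60), an autophagy receptor, TFEB (0.57), RRAGD (0.55), MAP1LC3B (0.51), SESN3 (0.51), FNIP2 (0.45), and DDIT4. TFEB, the main transcription factor of lysosome genes, was -0.04, 0.13, and -0.37 in the controls and 0.64, 0.60, and 0.18 after GSK-J4 (limma adjusted p = 0.022), with 31 to 40 control reads. The lysosomal proteases CTSB (0.31), CTSD (0.13), and CTSL (0.00), and the membrane proteins LAMP1 (0.15) and LAMP2 (0.05), were not called, so that LAMP3 stood far from its relatives.

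The p53 pathway list was higher throughout: all 43 measured members had a log2 fold change above 0. Of them 23 were called higher (53.5%, against 7.79% of all genes) and none lower (median 0.45). By role, 1 of 6 regulators (MDM2, 0.56), 5 of 7 arrest genes, 8 of 14 death genes, and 9 of 16 genes of repair, metabolism, and other functions rose. TP53INP1, an autophagy and death gene, rose from 4.31, 4.43, and 4.48 to 5.74, 5.56, and 5.68, and PMAIP1 (NOXA), a BH3-only death gene, from 6.63, 6.57, and 6.63 to 7.31, 7.27, and 7.42. The decoy death receptor TNFRSF10C rose from 1.03, 1.19, and 1.22 to 2.39, 2.31, and 2.30, and SPATA18, a mitophagy gene, by 1.19 ± 0.09. FAS rose by 1.2 ± 0.08, but 51.5% of its span is shared with ACTA2 (1.39, called higher), whose reads may not be fully separated from it. Other members such as AEN (0.10), BAX (0.08), TRIAP1 (0.08), and RPS27L (0.18) were not called. In the BCL2 family, HRK, a killer with only a BH3 domain, rose from 0.81, 0.63, and 0.85 to 2.76, 2.68, and 2.65 (1.93 ± 0.11), PMAIP1 was the other pro-apoptotic rise, and the anti-apoptotic BCL2L1 was 0.39 ± 0.04, just over the fold limit, and 0.37 without the second GSK-J4 library. BIK was called lower (-0.40, limma adjusted p = 0.047), and its adjusted p was 0.05 or above in all alternatives but the prior count, the mean filter, and leaving out the first control.

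Replication-dependent histone genes, which are transcribed in S phase, were lower. Of 62 on the list 28 were measured, and 13 fell and none rose (median -0.50), against 3.12% of all genes called lower. Most of these transcripts end in a stem-loop without a poly(A) tail, so that poly(A) libraries hold few of their reads. The log2 fold change was below 0 in 27 of the 28. The falls were spread over linker histones (2 of 3), H2A (3 of 6), H2B (6 of 11), and H3 (2 of 4), and no H4 gene was called (0 of 4). Of the 28, 10 passed the filter only through libraries without GSK-J4. The median of -0.50 and the count of 27 were taken over all 28, these included. The 6 called among these were H3C8, H3C10, H2BC15, H2BC18, H2AC20, and H1-4, and H2AC13, H2BC17, H2BC6, and H3C6 were not called. This leaves 7 falls in genes the filter did not select: 1 linker histone, 2 H2A, 4 H2B, and 0 H3. The best-covered member was H2BC21, at 2.99, 2.86, and 2.80 in the controls and 2.51, 2.51, and 2.34 after GSK-J4 (-0.43 ± 0.11, limma adjusted p = 0.004). H2BC4 went from 2.61, 2.35, and 2.47 to 1.93, 2.09, and 1.97. The treated libraries were below every control in both. The largest falls were in genes with 10 to 30 reads per control library: H3C8 (-1.38), H2BC15 (-1.37), and H1-4 (-1.29). H3C8 lost its call without the third GSK-J4 library (-1.07) or the second control (-1.13), and H1-4 without the first control (-1.0). The list had 9 falls without the third GSK-J4 library and 5 without the first control library. Histone genes are near-identical copies and may share reads.

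The histone promoters share the letters CCAAT, a box bound by NF-Y, on either strand. It was present for 24 of 26 measured histone genes with a window (92.3%), including all 13 that fell, against 42.6% of all genes with a window, and is a known feature of these promoters that also marks members that were not called. The 250 bases before the start site of H2BC21, chr1:149886683-149886932 on the minus strand, are printed with all 3 matches in capitals.
H2BC21: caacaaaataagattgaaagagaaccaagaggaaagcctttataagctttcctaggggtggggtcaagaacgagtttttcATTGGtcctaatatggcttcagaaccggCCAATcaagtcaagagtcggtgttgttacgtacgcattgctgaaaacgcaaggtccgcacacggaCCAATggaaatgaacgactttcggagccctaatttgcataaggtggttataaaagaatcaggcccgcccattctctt

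Genes of S phase and mitosis were slightly lower as a group. Of 44, 3 fell, and without the fold limit 38 were lower and 0 higher, against 16% and 19.2% of all genes, with a median of -0.20. UHRF1, which guides DNMT1 to replicated DNA, fell from 5.82, 5.83, and 5.86 to 5.36, 5.44, and 5.27, and E2F2 fell by 0.53. CCNB1, cyclin B1, was 8.44, 8.44, and 8.40 against 8.04, 8.02, and 8.07 (-0.38 ± 0.03, limma adjusted p = 1.9e-09), at the fold limit, and dropped under it without the first or second control or the second GSK-J4 library. MYC was -0.01 ± 0.04 with groups that overlapped. The share of cells in each phase was not measured.

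Of 19 measured histone demethylases of the JmjC family, the drug's targets among them, 1 was called higher (5.26%, against 7.79% of all genes). The called member was KDM6B. It was 4.45, 4.45, and 4.67 in the controls and 5.43, 5.43, and 5.16 after GSK-J4 (0.81 ± 0.07, limma adjusted p = 2.3e-10), whereas KDM6A was 7.10, 7.10, and 7.14 against 7.13, 7.15, and 7.24 (0.06 ± 0.03, or 0.03 without the third GSK-J4 library). Neither value measures enzyme activity. Of 12 PRC2 genes none was called, and EZH2 was 6.25, 6.26, and 6.18 against 6.30, 6.30, and 6.33. In PRC1, PCGF5, a RING finger subunit, rose from 2.65, 2.64, and 2.65 to 3.25, 3.15, and 3.25 (0.57 ± 0.09). In DNA methylation, DNMT3B and UHRF1 fell among 9 genes. DNMT3B, the de novo methyltransferase and one of the most abundant transcripts in these cells, was 11.72, 11.76, and 11.68 in the controls and 11.30, 11.27, and 11.28 after GSK-J4 (-0.43 ± 0.04, limma adjusted p = 1.2e-09). DNMT1 (-0.02), DNMT3A (-0.14), and TET1 (-0.06) were not called.

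None of the core pluripotency factors POU5F1, NANOG, and SOX2 was called. POU5F1 (OCT4) was 9.43, 9.37, and 9.41 against 9.50, 9.54, and 9.38 (0.07, limma adjusted p = 0.10). Without the third GSK-J4 library, the lowest of its treated values, POU5F1 was 0.12 (limma adjusted p = 0.00069), still under the fold limit. LIN28A was -0.02. NANOG (-0.24 ± 0.03) and SOX2 (-0.22 ± 0.03) were separated between the groups and lower, under the fold limit. Of 29 factors, ESRRB, FOXD3, and GDF3 fell and KLF5 (0.53), PRDM1 (0.47), LEFTY1 (0.41), and LEFTY2 (0.55) rose. GDF3, a TGF-beta family ligand that is very abundant in embryonal carcinoma, went from 9.64, 9.61, and 9.64 to 9.19, 9.21, and 9.14. The median of the list was -0.16. Without the fold limit 15 members were lower and 5 higher, against 16% and 19.2% of all genes. The LEFTY genes are near copies and may share reads, and the PRDM1 call was lost with the length and GC trend removed (0.37).

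Some markers of early endoderm rose. Of 13 on the list 6 were measured and 5 were called higher, but HNF4A and AFP passed the filter only through libraries with GSK-J4 and had to differ, which leaves CER1, GATA4, and CXCR4. CER1, a secreted NODAL antagonist of the anterior endoderm, was 2.36, 2.16, and 1.99 in the controls and 3.46, 3.65, and 4.07 after GSK-J4 (1.56 ± 0.11). HNF4A had 3, 6, and 6 reads in the controls and 24, 28, and 35 after GSK-J4, a ratio of 7.52. AFP had 3, 1, and 1 reads and then 13, 11, and 8 (ratio 8.3). GATA4 rose from -0.32, 0.02, and 0.40 to 0.83, 0.89, and 0.75, and CXCR4 by 0.61. SOX17, GATA6, FOXA2, and APOA1 were not measured.

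Genes of other lineages rose singly. GATA2 went from 1.89, 2.03, and 1.92 to 3.07, 2.91, and 3.11, GATA3 by 0.65, and TFAP2A from -0.74, -0.77, and -0.27 to 0.75, 0.76, and 0.64. These belong to a list of 7 measured trophoblast-associated genes, of which KRT7 was also called higher (0.41) and ERVW-1 lower (-0.70), while TFAP2C was 0.03. KRT7 and ERVW-1 lost their calls without the third GSK-J4 library (limma adjusted p = 0.059 and 0.066). HAND1 (0.89) and MSX2 (0.73) were the rises among 8 mesoderm genes, and SOX3 (0.82) the only one among 6 neuroectoderm genes. In the NODAL, BMP, and WNT pathways, 6 of 17 ligands and inhibitors rose: GREM1, a BMP antagonist, from -0.89, -0.77, and -0.48 to 1.23, 1.33, and 1.71, CER1, BMP2, BMP4 (0.59), LEFTY1, and LEFTY2. GDF3 fell (-0.45), and INHBA, an activin subunit, had the lowest value (-0.60) and was not called. NODAL itself was 0.00. Of 18 receptors, transducers, and targets, ID4 rose by 0.77 and the inhibitory SMAD6 fell by 0.43. BMP2 (0.63) lost its call in 5 of the 6 fits that left out a library, with limma adjusted p of 0.057 to 0.071.

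Among immediate early genes, AP-1 subunits changed unevenly. FOSL2 went from 0.88, 0.89, and 0.79 to 2.48, 2.33, and 2.25 (1.5 ± 0.13), FOSL1 from 2.40, 2.60, and 2.64 to 3.30, 3.30, and 3.30, and JUN rose by 0.43, while FOS (0.08) and JUNB (-0.13) were not called. KLF2 (1.56), which passed the filter only through libraries with GSK-J4, DUSP8 (1.03), KLF6 (0.49), ZFP36 (0.49), and DUSP1 (0.46) completed the 8 rises among 26. These 8 made up 30.8% of the list, against 7.79% of all genes called higher. In a list of 21 NF-kB and cytokine genes, NFKB2 rose from 5.04, 5.02, and 5.09 to 5.67, 5.68, and 5.62. TNFRSF9 (4-1BB) had 4, 3, and 1 reads in the controls and 16, 24, and 18 after GSK-J4 (ratio 9.4). It passed the filter only through libraries with GSK-J4 and so had to differ. EBI3 rose by 1.39 and IL11 by 0.91, and CSF1 was called at 0.60 with groups that overlapped. Rises made up 23.8% of this list, TNFRSF9 included. NFKBIA (-0.03), TNFAIP3 (0.07), and ICAM1 (0.05), classical targets, were not called.

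Interferon genes were not called in any of 13 measured cases, and HLA-B (0.84) and the peptide transporter TAP1 (0.65) were the only rises among 11 genes of antigen presentation. These rises made up 8.33% of the 24 genes of both sets, close to the 7.79% of all genes called higher. HLA-B reads can be shared with other class I genes. Of 38 matrix and adhesion genes 7 rose (18.4%, against 7.79% of all genes) and none fell (median 0.20). Among the rises were ITGA3, from 2.01, 2.09, and 1.98 to 3.22, 3.24, and 2.98, CDH2 (0.73), ITGAV (0.64), CDH6, LAMB3 (0.56), and COL6A3. CDH6 (0.62) and COL6A3 (0.48), with 21 to 43 and 44 to 66 reads per control library, lost their calls in several fits without 1 library. CDH1 (0.34) and VIM (0.06) were not called. No member was called among 63 cytosolic ribosomal proteins (median 0.01), with adjusted p under 0.05 alone for 20 of them, or among 50 genes of platinum handling and crosslink repair (median 0.01, 16 with adjusted p under 0.05 alone), against 35.2% of all genes. The platinum list included the copper and platinum carrier SLC31A1 (-0.01), ERCC1 (0.14), FANCD2 (0.14), and BRCA1 (0.16).

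Small nucleolar RNAs (snoRNAs), which guide the modification of ribosomal RNA and are cut from introns of host genes, had the highest share of lower calls by gene type. Of 66 measured, 18 were called lower (27.3%) and none higher, with a median of -0.37, against 2.5% of 14082 protein-coding genes and 6.33% of 2071 long noncoding RNAs called lower. Of the 18, 4 passed the filter only through libraries without GSK-J4. Mature snoRNAs are not polyadenylated and are short, their levels here are low, and the source of these reads was not tested. The share fell with processing: 13 of 66 without the third GSK-J4 library, and 7 lower and 2 higher of 54 with the length and GC trend removed (median -0.12).

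The host gene GAS5, chosen for description after its values were seen, rose while most snoRNAs inside it were lower. GAS5 (chr1:173863901-173869045), a noncoding RNA that is degraded when ribosomes translate it, was 5.96, 5.80, and 5.91 in the controls and 6.85, 6.90, and 6.80 after GSK-J4 (0.96 ± 0.05, limma adjusted p = 2.8e-14). Of 9 measured snoRNAs inside it, 7 were called lower. SNORD47, the most abundant called one, was 1.91, 1.83, and 1.73 against 1.16, 1.11, and 0.99, SNORD77 was -0.81, and SNORD78, SNORD74, SNORD44, SNORD79, and SNORD80 lay between -0.56 and -0.43. SNORD78 and SNORD74 lost their calls without the third GSK-J4 library. Among 27 measured GAS5 and SNHG host genes, SNHG32 (1.15), SNHG5 (0.69), and SNHG29 (0.43) also rose, and SNHG10 (-0.69), SNHG4 (-0.66), SNHG20 (-0.58), and SNHG3 (-0.46) fell. SNHG1 was -0.13 and not called, while SNORD27 (-1.17), SNORD28 (-0.94), SNORD22 (-0.77), SNORD31 (-0.74), and LOC124900306 (-0.64) within it were called lower. SNORD29 (-0.48), SNORD26 (-0.33), and SNORD30 (-0.19), also within SNHG1, were not called.

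GSK-J4 was then compared between cells that all received cisplatin, a contrast that shares no library with the one above. Here 19.3% of genes were called, 10.5% higher and 8.82% lower. Of the 1327 genes called higher with GSK-J4 alone, 97.7% moved the same way, 78.0% were called higher again, and 4 were called lower, with a median of 0.63 against 0.62. Of the 531 called lower, 94% moved the same way and 60.1% were called again, with a median of -0.52 against -0.55. Read the other way, 57.8% of the 1792 genes called higher with cisplatin present were called with GSK-J4 alone, and 21.2% of the 1503 called lower, whose median with GSK-J4 alone was -0.28. The calls on the lower side rose most, from 3.12% to 8.82% of genes.

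By list, the stress response was again called with cisplatin present, with 18 of 27 higher with a median of 0.93, 9 of 20 amino acid transporters (1 lower), and 13 of 26 synthesis enzymes (2 lower). Cholesterol and fatty acid genes went from 1 to 19 called lower of 41 (median -0.10 to -0.35), and glycolysis from 1 to 11 of 20. The libraries with both drugs differed in this. Against the control mean, the cholesterol and fatty acid median was -0.43, -0.28, and -0.19 in them. The hypoxia and glycolysis median was -0.37, -0.13, and -0.11. Without the first of these libraries, 1150 genes were called lower over all genes, against 1503 with it. MIR17HG was -0.49, from 2.72, 3.07, and 3.03 with cisplatin to 2.19, 2.40, and 2.75 with both drugs, and these groups overlapped. GAS5 rose by 1.27 and the snoRNAs gave 8 lower and 5 higher of 66. Of the snoRNAs named above within GAS5 and SNHG1, SNORD28 (-0.83), SNORD80 (-0.60), and SNORD44 (-0.46) were called lower. The others were not called, SNORD27 (-0.41), SNORD47 (-0.13), and SNORD79 (0.09) among them.

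The test of the difference between the GSK-J4 effects called 0.857% of genes, 0.194% with a higher and 0.663% with a lower effect in cisplatin-treated cells. Among named genes, SLC7A11 rose by 1.00 alone and by 1.46 with cisplatin (difference 0.45 ± 0.07, limma adjusted p = 0.00081), and SLC38A1 by 1.28 and 1.68 (0.40 ± 0.08, limma adjusted p = 0.0062). LEFTY2 was 0.55 alone and -0.23 with cisplatin (difference -0.79 ± 0.14, limma adjusted p = 0.004). FOSL2 and CER1 rose in both settings and less with cisplatin, which by itself raised them by 0.77 and 0.82. Cisplatin alone called 1.07% of genes, 0.881% higher and 0.188% lower. The number of called differences depended on single libraries. It was 447 without the third GSK-J4 library, 258 without the third library with both drugs, and 59 to 93 in 8 other fits that left out 1 library, against 146 with all.

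**Figure D4:**
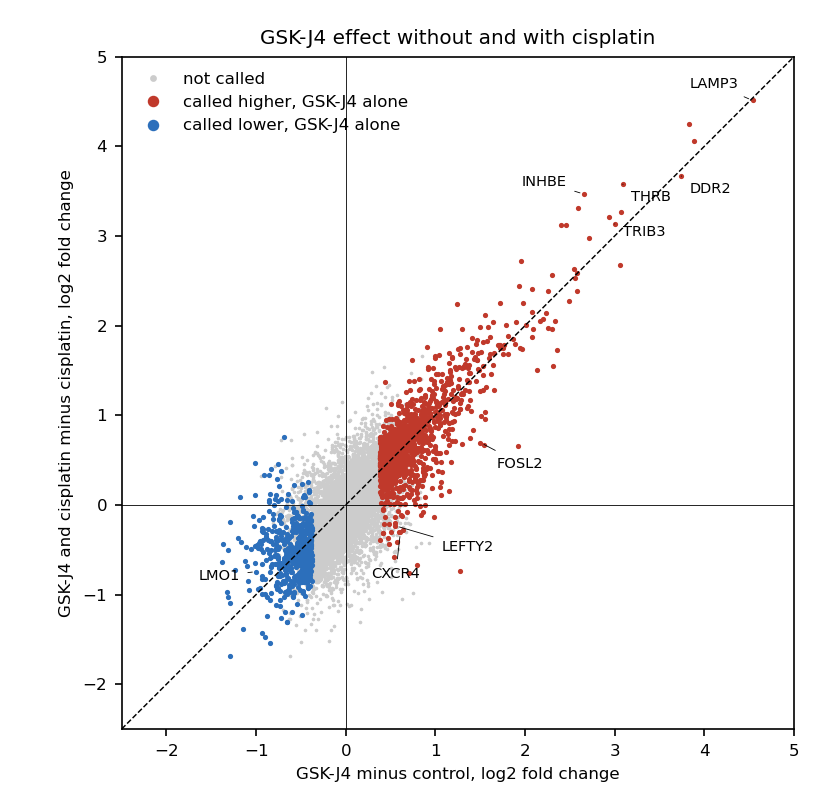
Log2 fold change of every gene after GSK-J4 without cisplatin (x axis) and with cisplatin (y axis), colored by the call without cisplatin, with a dashed line of equal change. Genes called higher lie near the line up to LAMP3 at 4.54 and 4.51, and LEFTY2 and CXCR4 lie above 0 on the x axis and below 0 on the y axis.

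Transcripts of the mitochondrial genome also differed between the settings, by 0.68 ± 0.08 for COX2 (limma adjusted p = 4.8e-06). With GSK-J4 alone, COX3, a subunit of cytochrome oxidase, was 9.97, 10.03, and 10.21 in the controls and 9.54, 9.51, and 9.49 (-0.55 ± 0.05), and COX2 was -0.42 ± 0.05. ND1 (0.25), ND2 (0.35), and ND3 (0.27), subunits of complex I, were higher and not called, and of the 13 genes 6 were above and 7 below 0, with a median of -0.00. With cisplatin present, 10 of the 13 were called higher after GSK-J4 and none lower (median 0.65). Cisplatin alone had lowered them. Against the control mean, the list median was -0.58, -0.38, and -0.46 in the libraries with cisplatin alone. With both drugs it was 0.22, 0.09, and 0.26. The COX2 call with GSK-J4 alone was lost without the third control library (-0.36).

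The same drug in NT2/D1-A4 cells and the double knockdown in 2102EP-C1 were fitted in their own tables, which were normalized separately, so that values are set side by side and no difference between them was tested. GSK-J4 called 20.3% of genes in NT2/D1-A4 (13.8% higher, 6.48% lower) and sh6A+6B called 12.1% in 2102EP-C1 (6.34% higher, 5.74% lower). The stress response list had 18 of 26 members higher after GSK-J4 in NT2/D1-A4 (median 1.40) and 3 of 26 with sh6A+6B (median 0.10). TRIB3 was 3.00 in 2102EP-C1, 2.87 in NT2/D1-A4, and -0.07 with sh6A+6B, and DDR2 was 3.74, 3.55, and 0.13 in the same order. LAMP3 was 4.54, 3.19, and 0.56, and GDF15 2.25, 3.35, and 0.10. The p53 list had 32 of 42 members higher in NT2/D1-A4 (median 0.88) and 5 of 43 with sh6A+6B (median 0.06). KDM6B was 0.81 and 0.88 with the drug and -1.01 with the hairpins.

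Some genes took another course in the other line. FLNC was 2.17 in 2102EP-C1 and 0.28 in NT2/D1-A4, ATF5 1.48 and 0.11, ANXA1 1.60 and 0.72, and FOXD3 -0.76 and 0.48. DDIT4 was 0.60 in 2102EP-C1 and 2.74 in NT2/D1-A4, and CXCR4 0.61 and 2.13. The cholesterol and fatty acid list had 15 of 41 members called higher and 3 lower in NT2/D1-A4 (median 0.32) against 0 and 1 in 2102EP-C1. Metallothioneins had 3 of 8 higher in NT2/D1-A4 (median 0.23). Of 14 histone genes measured in NT2/D1-A4, 4 were called lower, against 6.48% of all genes there. With sh6A+6B, 3 of 26 were called higher, against 6.34% of all genes. ADM was 0.98 after GSK-J4 and 1.16 with sh6A+6B in 2102EP-C1, GREM1 2.14 and 1.13, and CDH6 0.62 and 1.72.

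**Figure D5:**
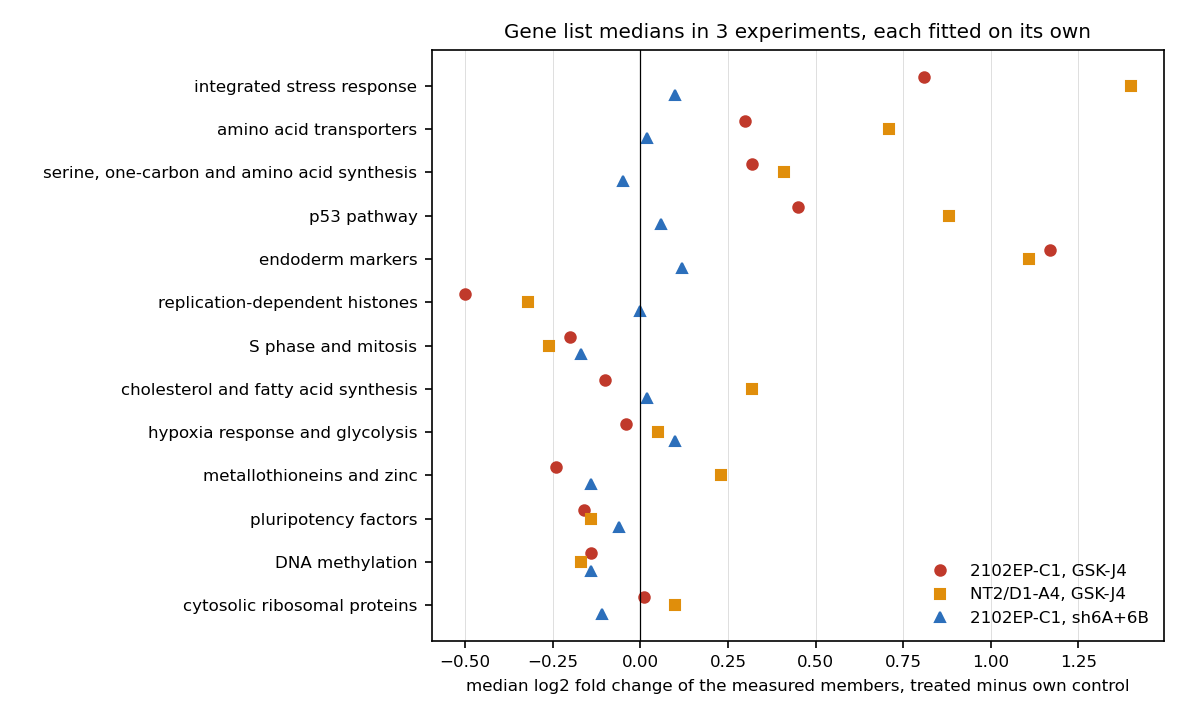
Median log2 fold change (x axis) of the measured members of 13 gene lists after GSK-J4 in 2102EP-C1 (circles), after GSK-J4 in NT2/D1-A4 (squares), and with sh6A+6B in 2102EP-C1 (triangles), each against its own control. The stress response median is 0.81, 1.40, and 0.10, and the cholesterol and fatty acid median is -0.10, 0.32, and 0.02. In 2102EP-C1 the drug medians of the stress response, endoderm, and histone lists include genes that the filter selected.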

How the data were processed

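RNA-seq was run on 36 samples, 3 per group, described as biological triplicates. The authors aligned stranded mRNA reads to GRCh38.p14 with STAR, counted genes with featureCounts, kept genes above 0.5 CPM in at least 2 samples, and deposited log2 CPM values after TMM normalization with a prior count of 3. Tool versions and the strand setting are not given in the sources used here, so genes that overlap on opposite strands may share reads.

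The log2 values of the 12 libraries in the 2102EP-C1 drug table were fitted with limma 3.58.1 (R 4.3.3), with a mean per group and an intensity trend. NT2/D1-A4 and the hairpin libraries were fitted in their own tables. Whole reads were recovered from the deposited log2 CPM: 100% of 44365 values under 50 reads came within 0.05 of a whole number. They served for depth, low-count ratios, and alternatives, voom weights included. Genes were called above 1.3-fold at a Benjamini-Hochberg adjusted p under 0.05. On simulated data, 197 of 200 planted changes among 17035 genes were recovered, with 5 false calls. The planted changes were larger than the fold limit and lay in well-covered genes. The simulation held no outlying library and no GC trend, so it does not bear on scarce genes or on the third GSK-J4 library.

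The members and the 32 gene lists were chosen with earlier results of these data known. Named genes were the 12 largest rises and falls with a mean log2 value of at least 1 and groups that did not overlap, up to 6 called members per list, and fixed regulators. Other list members named without a call, further called members, and the snoRNA hosts were picked after their values were seen. Promoter and microRNA sequences came from RefSeq tables of GRCh38.p14. Y-linked genes and XIST were left out, and some other genes are not reported here.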

Additional observations from a re-analysis of the deposited data

Results flagged for a closer look

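The GSK-J4 effect differed between cisplatin-treated and untreated 2102EP-C1 cells for 9 named genes, by a test of the difference across all 12 libraries (limma, adjusted over all genes). Differences are the effect with cisplatin minus the effect without it, on the log2 scale, and each range covers the alternatives run for that gene.

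COX2 had the smallest adjusted p. Its difference was 0.68 ± 0.08 (limma adjusted p = 4.8e-06, range 0.61 to 0.73), from -0.42 without cisplatin to 0.26 with it. COX3 differed by 0.47 ± 0.07, from -0.55 to -0.08. Both were called in 17 of 17 alternatives. Cisplatin alone changed COX2 by -0.61 and COX3 by -0.46, and COX2 was 9.32, 9.55, and 9.47 with cisplatin against 9.64, 9.64, and 9.84 with both drugs.

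The transporters SLC7A11 (0.45, range 0.37 to 0.51, called in 17 of 18 alternatives) and SLC38A1 (0.40, range 0.29 to 0.45, 15 of 18) had larger rises with cisplatin. SLC7A11 was 6.16, 6.19, and 6.18 with cisplatin and 7.80, 7.53, and 7.57 with both drugs. INHBE differed by 0.81 (limma adjusted p = 0.036) and was called in 6 of 17 alternatives. Cisplatin alone lowered it by 0.59 on the log2 scale.

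LEFTY2 differed by -0.79 (range -0.95 to -0.62) and was called in 18 of 18 alternatives. It was 5.0, 4.78, and 4.84 with cisplatin and 4.31, 4.64, and 4.97 with both drugs, and these groups overlapped. CXCR4 (-0.92, limma adjusted p = 0.034) and CER1 (-0.60, limma adjusted p = 0.036) were each called in 10 of 18 alternatives, and FOSL2 (-0.81, limma adjusted p = 0.021) in 12 of 18. Cisplatin alone raised CER1 by 0.82 and FOSL2 by 0.77.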

How the results depend on the processing

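The count of genes called with GSK-J4 alone was 1858 and ran from 1645 to 1924 when 1 library was left out, from 1771 to 1868 with only the 6 libraries compared, a prior count of 0.5, plain library sizes, or voom, and fell to 1152 among genes with a mean log2 value of at least 1. A length and GC trend removed from each library, chosen after seeing the data, gave 1573. With cisplatin present, counts without 1 library ran from 2679 to 3591, and called differences between the effects ran from 59 to 447. Called histones went from 13 to 2 under the mean filter and ran from 5 to 14 without 1 library. Of 131 called named genes, 106 held in every setting in which they were fitted and 25 lost their call in at least 1, CD68 and BIK most often. Near-zero, uncalled values changed sign. SREBF2 (0.02) was -0.01 without the first GSK-J4 library, -0.02 without the second, and -0.01 with the trend removed, and reached 0.07 without the third. TFRC and KDM6A (0.06 each) were both -0.05 with the trend removed. MYC (-0.01) was 0.01 with plain library sizes and without the second control, 0.02 without the first GSK-J4 library, and -0.03 without the second.

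No pairing by replicate number was seen: same-numbered control and GSK-J4 libraries had deviations that correlated at -0.145 to -0.0207 over 10427 genes. Pairs with other numbers ran from -0.0649 to 0.15. These correlations cannot exclude a shared culture or day, since the third GSK-J4 library weighs on them. With a replicate block 1842 genes were called, of which 1822 were shared.

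Low read numbers limit the histones, lineage markers, and snoRNAs, and 717 called genes had a mean log2 value under 1.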
